A study of Mus musculus with 4 samples.

Results

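The genes described here are 9 integrin subunit genes of leukocytes: Itgax, Itgam, Itgal, Itgae, Itgb7, Itga4, Itgb1, Itgb2 and Itgav. They were chosen by name, 9 of the 31053 features in the count tables, and each symbol matched 1 feature. Their transcripts were counted in single CD45+ leukocytes, live at sorting, from fibrosarcomas grown in mice for 11 days and captured with 10x Genomics 3′ chemistry. The control group carried Cas9 Control tumours and the other group Raldh1/3 DKO tumours, double knockouts for Raldh1 and Raldh3, enzymes that make retinoic acid. All tumours were untreated. There were 2 libraries a group, pooled from 2 tumours apiece. The p-values below measure the spread between pools, which the tests estimate with help from the spread of other genes. The knockout was in the tumour, whose own cells were mostly lost at the CD45+ sort, and guide positions are not given in the sources used here. The strain, sex and age of the animals, and whether 1 clone or several made up each tumour line, are also not given there.

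Integrins are paired receptors of an alpha and a beta subunit that bind matrix proteins or proteins on other cells. Leukocytes carry a family built on the beta chain CD18 (Itgb2), which joins LFA-1 (Itgal), Mac-1 (Itgam, CD11b) and CD11c (Itgax) and is used for arrest on vessel walls, for contact between cells and for uptake of complement-coated particles. The alpha chain Itga4 pairs with Itgb1 or Itgb7 to bind vascular cell adhesion molecules and the gut addressin, and Itgae pairs with Itgb7 to bind E-cadherin on epithelium. Itgav pairs with several beta chains and can release active TGF-beta from its latent form. Retinoic acid is known as a signal that raises gut-homing receptors on lymphocytes.

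After filtering, 25881 of 30504 barcodes were kept (4646 to 7642 per library) from 57458026 to 80032966 UMIs (unique molecular identifiers, each 1 counted transcript) per library. Pairs of libraries shared 20 to 38 barcode sequences. Ptprc, the gene of CD45, had a UMI in 89.8 to 92.7% of cells. Of the targeted genes, Aldh1a1 (Raldh1) had 1, 0, 0 and 1 UMIs in control 1, control 2, DKO 1 and DKO 2, the order of every such series here, and Aldh1a3 (Raldh3) had 28, 9, 10 and 23. In the few cells nearest to tumour cells or fibroblasts Aldh1a3 had 9, 3, 0 and 0 UMIs, so these tags check the targeting little. Cells were named by markers that left the 9 integrins out, and the names carry "-like" because they were rebuilt from markers. Monocyte/macrophage-like cells were 59.2, 66.7, 51.1 and 47.4% of the cells and T-like cells 15.1, 11.0, 21.8 and 18.9%. Values are CPM, a gene's UMIs in a cell class scaled to a common total of the class. Since they come from 3′ tags, a gene is compared with itself across cells and not with other genes.

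Among the alpha chains that pair with CD18, Itgam (chr7:128062640-128118491, plus strand, GRCm38) marks neutrophils and monocytes. It was highest in neutrophil-like cells, at 599 ± 38.4 CPM (SD over 4 libraries), with no overlap with the next class, monocyte/macrophage-like cells at 431 ± 105. Within the latter, classical monocyte-like cells stood apart at 730 ± 47.0 CPM, above macrophage-like (442 ± 154) and nonclassical monocyte-like cells (410 ± 15.1), whose ranges overlapped. T-like cells were lowest at 10.9 ± 4.13 CPM. A small gene on the same strand, Gm49368, overlaps Itgam and took 308 to 973 UMIs per library, and transcripts of the shared stretch cannot be told apart.

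Itgax (chr7:128129547-128150657, plus strand), the gene of CD11c and a common marker of dendritic cells, lies next to Itgam. Its class means ran from 151 ± 21.1 CPM in dendritic-like cells through 125 ± 50.7 in monocyte/macrophage-like cells to 79.7 ± 22.9 in NK-like cells, and the ranges of neighbouring classes in that order overlapped. T-like cells followed, apart from these, at 23.9 ± 4.97. Below the class level, macrophage-like cells at 122 ± 76.0 CPM overlapped type 2 dendritic-like cells at 137 ± 23.7, whereas mature dendritic-like cells were at 17.8 ± 12.1. Itgax did not, on these levels, separate dendritic-like from macrophage-like cells.

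Because these neighbours had opposite values in macrophage-like cells (below), the 250 bases before their start sites are printed. Both are on the plus strand of chromosome 7, from RefSeq's table of GRCm38.p6: chr7:128062390-128062639 for Itgam and chr7:128129300-128129549 for Itgax. Capitals mark GAGGAA or its reverse complement TTCCTC, the core letters bound by the myeloid factor PU.1.

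Itgam: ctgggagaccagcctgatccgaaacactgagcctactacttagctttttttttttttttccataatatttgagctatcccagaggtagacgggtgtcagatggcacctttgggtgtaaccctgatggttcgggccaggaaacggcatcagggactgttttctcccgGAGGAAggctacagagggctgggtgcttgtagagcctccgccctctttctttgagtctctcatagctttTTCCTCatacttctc

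Itgax: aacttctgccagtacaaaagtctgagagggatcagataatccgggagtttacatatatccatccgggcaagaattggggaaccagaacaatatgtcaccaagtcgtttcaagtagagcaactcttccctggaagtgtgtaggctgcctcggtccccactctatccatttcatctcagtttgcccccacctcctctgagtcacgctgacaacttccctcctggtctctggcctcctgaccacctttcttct

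Itgam held these letters at positions -84 and -15 counted from the start site, and the Itgax window held none. Of the 6 members whose window the table holds, 3 had the core: Itgam, Itgb1 and Itgav. It is common: 23.25% of 32851 such windows in the table held it on either strand. The half-site AGGTCA of retinoic acid receptors, found in 14.02% of windows, was in 0 of the 6. Its direct repeat spaced by 5 bases was in 0.009132% of windows and also in 0 of the 6. These are letters in short windows and say nothing of what binds there.

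Itgal (chr7:127296260-127335138, plus strand), the alpha chain of LFA-1, pairs with CD18 on most leukocytes. NK-like cells had 406 ± 74.9 CPM and T-like cells 378 ± 41.1, which overlapped, and neutrophil-like cells at 258 ± 79.1 overlapped T-like cells in turn. CD8 T-like cells stood apart from every other subclass at 523 ± 45.8 CPM. Nonclassical monocyte-like cells had 314 ± 51.5 CPM, against 114 ± 18.7 in classical monocyte-like cells. Mature dendritic-like cells were lowest at 8.71 ± 2.81.

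Itgb2 (chr10:77530252-77565708, plus strand), the shared beta chain, was spread more evenly. Neutrophil-like cells at 338 ± 93.9 CPM overlapped monocyte/macrophage-like cells at 320 ± 32.6, and T-like cells stood below, between 239 and 265. Its lowest subclass was mature dendritic-like cells, at 9.95, 19.3, 22.9 and 23.3 CPM from 8, 13, 14 and 14 UMIs. Type 1 and type 2 dendritic-like cells had 290 ± 33.3 and 310 ± 27.0 CPM, far outside that range. After each cell was thinned to 2000 UMIs, 1.14, 4.65, 1.37 and 3.12% of the mature dendritic-like cells had an Itgb2 UMI (5.94, 12.9, 12.3 and 8.45% unthinned), with 13, 7, 8 and 7 shallower cells left out.

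In the same mature dendritic-like cells, Itga4 (chr2:79255426-79333123, plus strand), the alpha chain of VLA-4, was at its highest. The 4 libraries read 909, 968, 937 and 853 CPM, a mean of 917 ± 48.8. All 4 were above the range of the next subclass, nonclassical monocyte-like cells at 408 ± 51.4, and CD8 T-like cells followed at 212 ± 71.0. Macrophage-like cells had 76.1 ± 9.35. Thinned to 2000 UMIs, 81.8, 86.0, 82.2 and 73.4% of mature dendritic-like cells had an Itga4 UMI (94.1, 96.8, 92.6 and 95.8% unthinned). High Itga4 and low Itgb2 were seen together in all 4 libraries.

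Itgb7 (chr15:102215995-102231944, minus strand), partner of Itga4 and Itgae, was highest in regulatory T-like cells at 661 ± 43.7 CPM, apart from type 2 dendritic-like cells at 277 ± 77.3. Mature dendritic-like cells were lowest at 15.1 ± 6.19, overlapping cycling monocyte/macrophage-like cells. Itgae (chr11:73090583-73147446, plus strand), the gene of CD103, had 3 places: regulatory T-like cells at 226 ± 99.6 CPM, type 1 dendritic-like cells at 219 ± 48.8 and cycling dendritic-like cells at 138 ± 38.5, whose ranges overlapped in that order. The next subclass, cycling T-like cells, had 11.1 ± 9.80, and B-like and plasmacytoid dendritic-like cells had 0 UMIs in every library. Counting 3 UMIs as the limit that a count of 0 allows, B-like cells could hold up to 34.8 CPM and plasmacytoid dendritic-like cells up to 27.5 in the shallowest library. CD8 T-like cells, which carry CD103 where they reside in epithelium, had 4.46 ± 3.31 CPM.

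Itgav (chr2:83724397-83806916, plus strand) was also highest in regulatory T-like cells, at 524 ± 108 CPM against 93.9 ± 30.8 in CD8 T-like cells, with no overlap. Itgb1 (chr8:128685654-128733200, plus strand), the most widely used beta chain, was highest in NK-like cells at 549 ± 56.4 CPM, overlapping the tumour or fibroblast-like cells at 504 ± 8.68. Its lowest subclass was regulatory T-like cells at 108 ± 40.7. Regulatory T-like cells were thus the top subclass for Itgae, Itgb7 and Itgav and the bottom one for Itgb1.

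**Figure D1:**
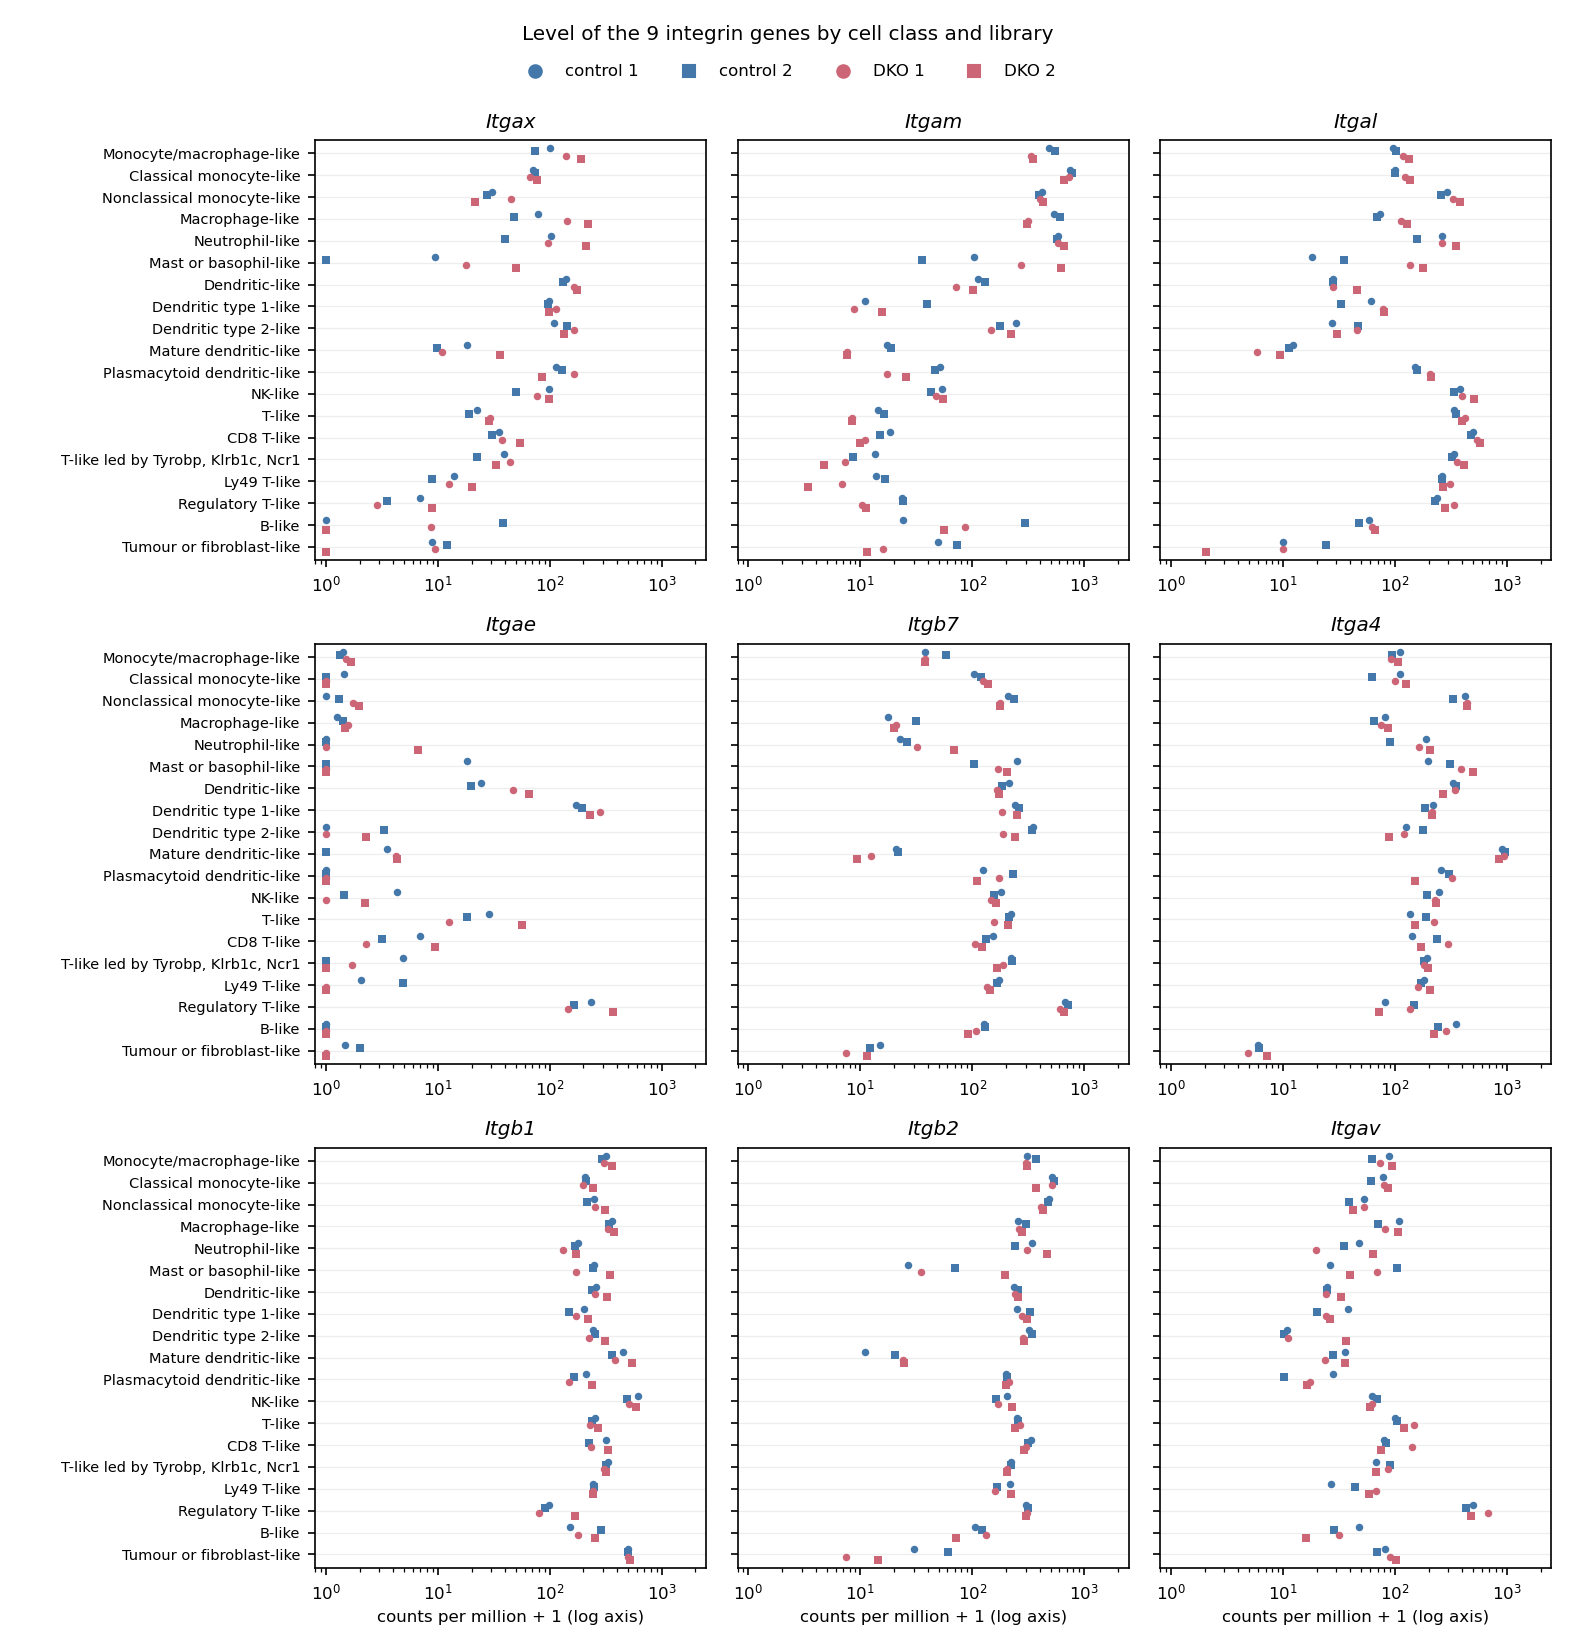
CPM plus 1 (log axis) of each of the 9 genes by cell class and subclass (rows); every point is 1 library, blue for control and red for DKO. Itgae is highest in regulatory T-like and type 1 dendritic-like cells, lower in the dendritic-like and T-like classes that hold them, and mostly lower still elsewhere. Mature dendritic-like cells have the lowest Itgb2 of the named subclasses and the highest Itga4.

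Across the 21 clusters of at least 100 cells, the genes whose log2 levels ran most like each member were read off as a description (Pearson r, 9297 genes compared, all clusters from the same 4 libraries). Itgam ran closest to Fcgr3, an Fc receptor (0.984), and Tlr4, the lipopolysaccharide receptor (0.981). Itgb2 ran closest to Myo1f (0.938), Itgal to Tmem71 (0.931), Itgae to Asb2 (0.910) and then Foxp3 (0.809), the factor of regulatory T cells, and Itgax to Scimp (0.899). Among the members themselves Itgam and Itgax reached 0.731, Itgal and Itgb2 0.669, and Itgae and Itgb7 0.667.

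The comparison of DKO with control asks whether leukocytes in tumours that lack Raldh1 and Raldh3 carry other levels of these receptors. Over all CD45+ cells together, Itgax read 88.4 and 67.5 CPM (control) against 112 and 145 (DKO), and Itgal 133 and 134 against 186 and 207. Itgam went the other way: the controls had 379 and 455 CPM, the DKO libraries 246 and 244. In all of these the groups did not overlap. The log2 values of DKO over control were 0.65 ± 0.16 (SE) for Itgax, 0.48 ± 0.11 for Itgal and -0.85 ± 0.16 for Itgam. By the edgeR quasi-likelihood test with Benjamini-Hochberg adjustment over all genes none passed 0.05 (adjusted p = 0.251, 0.231 and 0.205). In these sums, fewer cells of a type and less RNA per cell cannot be told apart, and the list of monocyte/macrophage markers, 21 genes, summed to 25551, 28496, 20819 and 21688 CPM beside Itgam.

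No member was called over all CD45+ cells, where edgeR called 0.0% of 14427 genes. An unadjusted p under 0.05 was reached by 3 of 9 members against 12.5% of all genes, and 4 of 9 had groups without overlap against 46.8%. The median log2 value of the members was 0.02 beside 0.01 for all genes tested. DESeq2 called the same 3 genes, Itgax, Itgal and Itgam (adjusted p = 0.0156, 0.0157 and 7.2e-05), where it called 3.13% of all genes (408 of 13028). With 2 libraries against 2, the smallest p of an exact permutation test is 0.33, so no single value could pass by that test.

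Within monocyte/macrophage-like cells, the cells that the study's title puts at its centre, Itgax was higher and Itgam lower in both DKO libraries. Itgax read 99.8 and 73.2 CPM (control) against 138 and 190 (DKO). Itgam read 487 and 551 CPM (control) against 336 and 350 (DKO), and the groups did not overlap for either gene. Itgal was at 95.5 and 101 CPM against 117 and 131, also without overlap. Itgb2, the chain that all 3 need at the surface, had 304 and 369 CPM (control) against 300 and 307 (DKO), an overlap.

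The edgeR log2 values in this class were 0.89 ± 0.19 for Itgax (adjusted p = 0.376), -0.64 ± 0.15 for Itgam (0.406) and 0.30 ± 0.12 for Itgal (0.583). None of the 9 members was called, where 0.00773% of 12944 genes were. By unadjusted p under 0.05 there were 3 of 9 members against 8.31% of genes, and 4 of 9 did not overlap against 39.2%, so the second share is close to the background. The other 6 members had no unadjusted p under 0.05: Itgb1 read 317, 290, 305 and 355 CPM, Itga4 110, 94.2, 91.5 and 106, and Itgav 87.5, 61.1, 72.2 and 92.3. DESeq2 called Itgax (adjusted p = 0.00319) and Itgam (0.00586), and with them 1.41% of genes. A fit without 1 library leaves a lone library in its group, which is assumed to vary like the other group, so such fits show how a value rests on single libraries and are no support for a call. With control 2 as the lone control, edgeR gave Itgax a log2 value of 1.08 (adjusted p = 0.0146) and Itgb7 one of -0.72 (0.0400), and 1.94% of genes passed.

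Marker lists of other cell types were summed in the same cells. The T marker list (7 genes) summed to between 15.7 and 17.4 CPM (control) and 21.2 and 21.4 (DKO), and the dendritic list (9 genes) to 12.4 to 18.9 and 15.4 to 34.4. A list of type 2 dendritic cell genes, some shared with macrophages, summed to 522 and 389 CPM (control) against 840 and 913 (DKO). Their part in the Itgax value was not tested. Depth differed too, with a median of 9646, 8864, 11234 and 12772 UMIs per cell.

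With each cell thinned to 2000 UMIs, both genes also differed in the share of cells that had a UMI. Itgax had a UMI in 15, 11.7, 20.1 and 23.1% of monocyte/macrophage-like cells (41.3, 33.4, 53.0 and 55.2% unthinned). Itgam had one in 60.3, 63.5, 46.9 and 46.9% (92.1, 93.3, 85.8 and 86.6% unthinned). Shallower cells numbering 157, 136, 113 and 56 were left out. T-like cells, which carry little of either gene, had a thinned Itgax share of 3.24, 2.76, 5.12 and 5.63% and an Itgam share of 2.68, 2.23, 1.10 and 1.64%, at median depths of 4974, 4845, 5195 and 6412 UMIs.

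**Figure D2:**
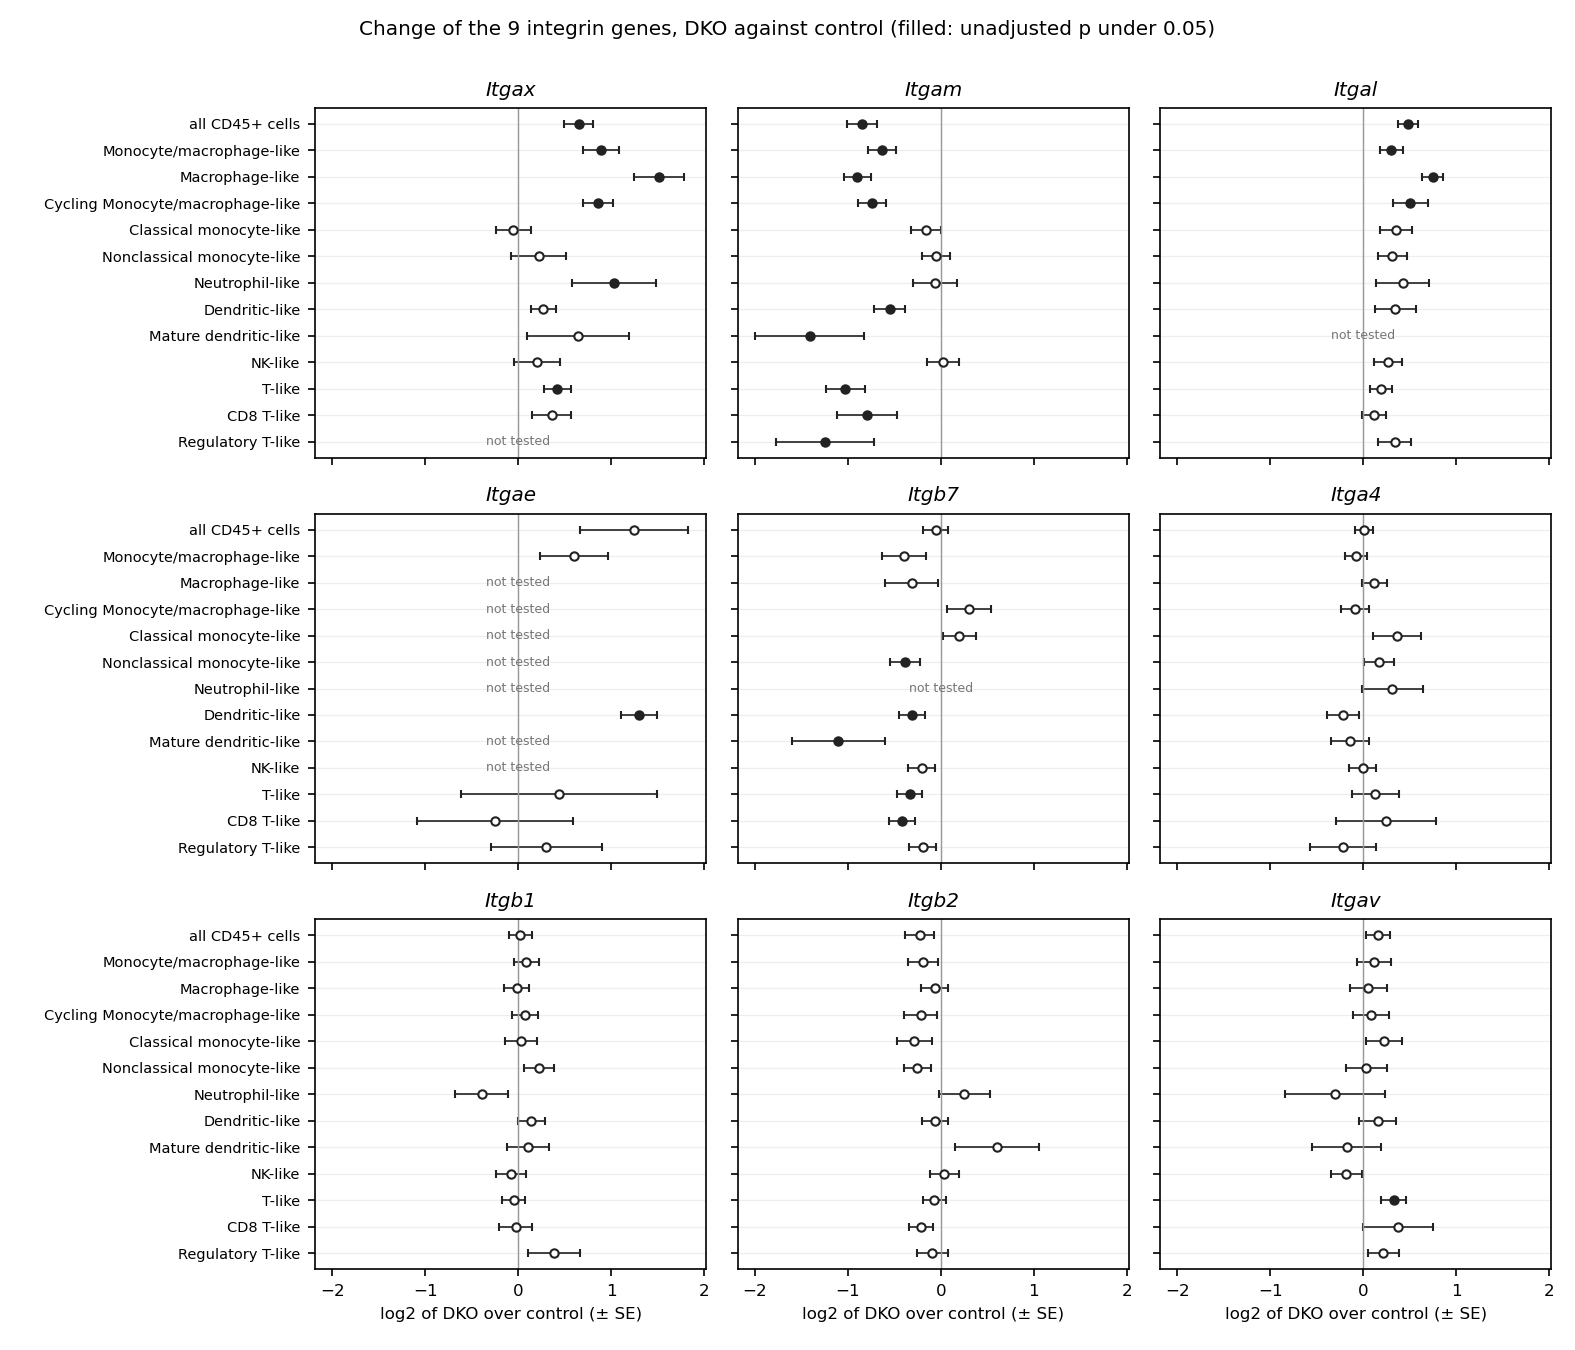
The log2 value of DKO over control (x axis, points with SE bars, edgeR) of each gene in all CD45+ cells and in 12 classes and subclasses (rows); filled points have an unadjusted p under 0.05. Itgax points lie mostly right and Itgam points mostly left of 0, Itgb1, Itgb2 and Itga4 points lie near 0, and no point passed adjustment.

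Macrophage-like cells held the widest differences of the class. Itgax read 78.1 and 47.0 CPM (control) against 142 and 219 (DKO), and Itgam 538 and 607 against 316 and 306. Itgal read 73.4 and 67.5 CPM (control) against 112 and 127 (DKO). Every DKO library was outside the control range for these 3 genes, while Itgb1 (362, 340, 329 and 373 CPM), Itgb2 (254, 298, 258 and 276) and Itga4 (81.0, 64.2, 73.6 and 85.6) overlapped. The edgeR log2 values were 1.51 ± 0.27 for Itgax (adjusted p = 0.103), -0.90 ± 0.15 for Itgam (0.0796) and 0.75 ± 0.11 for Itgal (0.0638).

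None of the 8 members tested in macrophage-like cells was called, against 0.0595% of 11765 genes. By unadjusted p under 0.05 there were 3 of 8 against 11.4% of genes, and without overlap 3 of the 8 (Itgae, with 5 to 11 UMIs a library, was not tested) against 40.5%. DESeq2 called all 3 (adjusted p = 8.18e-08 for Itgax, 2.06e-06 for Itgam and 0.000413 for Itgal), where it called 2.31% of genes (272 of 11765). With control 2 as the lone control, these 3 and Itgb7 (log2 -0.70) passed in edgeR, where 5.71% of genes did (692 of 12119), and the Itgax value was 1.89. With control 1 as the lone control Itgax passed (1.22, adjusted p = 0.00490), beside 1.05% of genes. The spread in both fits came from the 2 DKO libraries. Over 11 settings the log2 value ran from 1.20 to 1.89 for Itgax and from -1.01 to -0.78 for Itgam.

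The make-up of macrophage-like cells differed between the groups. Most control cells lay in a subcluster led by Cd163, Rcn3 and Lyve1 (611 and 749 cells, with 179 and 247 in DKO) and one led by Ppbp, Pf4 and Cxcl3 (465 and 929, with 162 and 66 in DKO). Most DKO cells lay in one led by Apol7c, Adamdec1 and Igf1 (771 and 603 cells, with 519 and 262 in control). Depth and the share of cells with an Itgax UMI moved with it: thinned to 2000 UMIs, 11.4, 7.11, 21.7 and 27.9% of macrophage-like cells had one (34.0, 23.5, 59.9 and 66.0% unthinned). The median depth went from 11330 and 10221 UMIs per cell in control to 15886 and 17514 in DKO.

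These 3 subclusters differed in their integrins in every library. Itgax in the Apol7c subcluster read 156, 125, 173 and 280 CPM, above the 21.5, 18, 30 and 57.4 of the Cd163 subcluster. Itgam was the reverse, with 355, 421, 249 and 218 CPM in the Apol7c subcluster and 614, 634, 478 and 522 in the Cd163 one. Within each of the 3 subclusters, both DKO libraries were above both control libraries for Itgax and below both for Itgam. Itgal was higher without overlap in the Apol7c subcluster (103, 116, 128 and 158 CPM), overlapped in the Cd163 one (51.0, 53.0, 63.3 and 45.9) and was lower without overlap in the Ppbp one (62.9, 61.7, 56.7 and 51.6).

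Of the 11 monocyte/macrophage-like subclusters with at least 30 cells in each library, Itgax was higher in DKO in 10 (8 without overlap, median log2 0.54) and Itgam lower in 10 (9 without overlap, median log2 -0.30). Itgal was higher in 10, 7 of them without overlap, with a median of 0.36. In these 11 subclusters 32.6 to 41.5% of the class's genes had no overlap. The subclusters come from the same 4 libraries and are not replicates. When the subclusters were given 1 common mix in every library, the Itgax values were 96.9, 81.8, 118 and 162 CPM and the log2 difference of group means went from 0.91 to 0.63. For Itgam they were 506, 519, 421 and 410 CPM and the difference went from -0.59 to -0.30. Itgal went from 0.33 to 0.27. For all 3 the groups still did not overlap. At the common mix 4 of 9 members did not overlap, beside 40.6% of 12944 genes, which is close to the background.

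**Figure D3:**
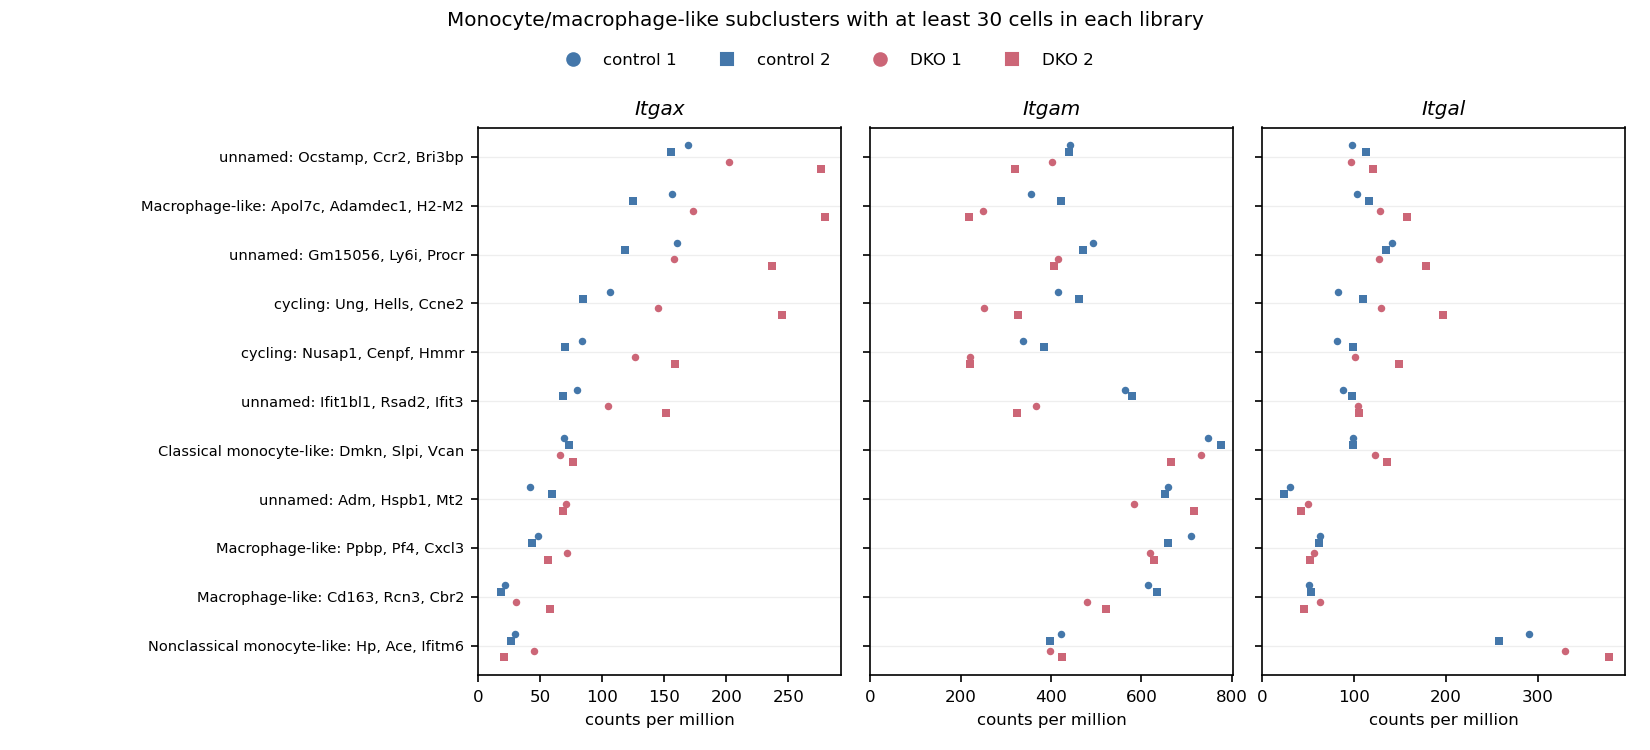
CPM of Itgax, Itgam and Itgal (x axes) in the 11 monocyte/macrophage-like subclusters with at least 30 cells in each library (rows, with their leading genes); every point is 1 library. Red DKO points lie to the right of blue control points for Itgax in 8 subclusters and to the left for Itgam in 9.

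Cycling monocyte/macrophage-like cells had Itgax at 90.8 and 74.8 CPM (control) against 131 and 179 (DKO) (log2 0.86 ± 0.16, edgeR adjusted p = 0.0949). Itgam read 363 and 410 against 228 and 245 (-0.74 ± 0.15, adjusted p = 0.108). The groups did not overlap for either. Of the 8 members tested 3 had no overlap, beside 38.1% of genes, which is close to the background. In edgeR 0 of 8 were called beside 0.157% of genes, and 3 of 8 had an unadjusted p under 0.05 against 8.07%. DESeq2 called both (adjusted p = 0.00524 and 0.00316), beside 0.63% of genes.

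Neither Itgax nor Itgam had an unadjusted p under 0.05 in monocyte-like cells. Classical monocyte-like cells had Itgax at 69.2, 72.6, 65.8 and 76.2 CPM and Itgam at 748, 775, 732 and 665. The edgeR log2 values were -0.05 ± 0.19 and -0.16 ± 0.16 (adjusted p = 0.926 and 0.676). The Itgax value turned positive with doublets kept (0.53), with finer clusters (0.68) and with the members among the clustering genes (0.28), none of them called. Nonclassical monocyte-like cells had Itgax at 29.7, 26.2, 44.5 and 20.6 CPM and Itgam at 422, 397, 397 and 425, with log2 values of 0.22 ± 0.30 and -0.05 ± 0.15. In both subclasses 0 of 8 tested members were called, where 0.0986% of genes in classical and 0.0123% in nonclassical monocyte-like cells were. Unadjusted p under 0.05 was reached by 0 of 8 in the classical (14.8% of genes) and 1 of 8 in the nonclassical subclass (16%), which was Itgb7 with 209, 233, 175 and 177 CPM. Libraries of 5 of the 8 did not overlap in each, beside 47.0 and 48.4% of genes. DESeq2 called none of the members in either. It gave an adjusted p to only 3239 of 8117 genes in the classical subclass (1.11% of them called). In the nonclassical subclass it did so for 879 of 8121 (7.51%).

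Whether the values of macrophage-like cells differed from those of monocyte-like cells was tested as a class-by-group term, a test added after the values were seen. Against classical monocyte-like cells the term was 1.65 ± 0.19 for Itgax (edgeR adjusted p = 1.86e-14) and -0.67 ± 0.15 for Itgam (0.000826), 2 of 8 members beside 2.84% of 11557 genes. The model was fitted to 8 sums from the same 4 libraries. It took the spread mostly from other genes, so the small p-values overstate what 2 pools a group can show. Both calls were lost when doublets were kept, where the values were 0.95 and -0.66 (adjusted p = 0.399 and 0.394). With finer clusters they were 0.78 and -0.22 (adjusted p = 0.555 and 0.639), and with the members among the clustering genes 1.33 and -0.57 (0.636 and 0.187). The Itgam call was also lost without control 2 (adjusted p = 0.136). Over 9 settings the values ran from 0.78 to 2.05 for Itgax and from -0.73 to -0.22 for Itgam. Against nonclassical monocyte-like cells Itgam was called (-0.83 ± 0.15, adjusted p = 0.00176; 1 of 8 members, 0.686% of genes) and Itgax was not (1.31 ± 0.65, adjusted p = 0.586). That Itgam call was lost without control 2, DKO 1 or DKO 2 (adjusted p = 0.444, 0.0992 and 0.102).

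**Figure D4:**
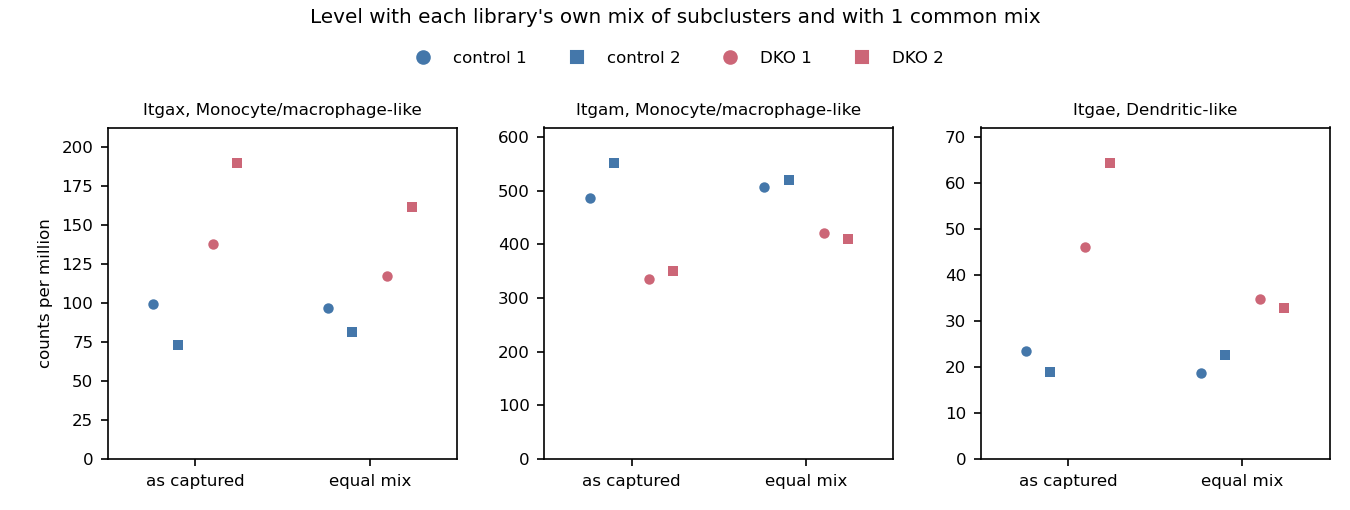
CPM of Itgax and Itgam in monocyte/macrophage-like cells and of Itgae in dendritic-like cells (y axes), with each library's own mix of subclusters and with 1 common mix; every point is 1 library. The distance between red and blue points is smaller at the common mix in each panel and the groups still do not overlap. At that mix 40.6% of genes in monocyte/macrophage-like and 42.9% in dendritic-like cells have no overlap.

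Neutrophil-like cells, which had the highest Itgam, read 584, 573, 583 and 656 CPM of it and Itgax at 102, 38.9, 96.1 and 209 (28, 25, 31 and 37 UMIs). None of 7 tested members was called (0.0566% of 3531 genes) and Itgax alone had an unadjusted p under 0.05 (8.81% of genes), with log2 1.03 ± 0.45 and an edgeR adjusted p of 0.551. Itgax passed with control 2 as the lone control (log2 1.58, adjusted p = 0.0134, 1.75% of genes) and with DKO 2 as the lone DKO library (1.52, adjusted p = 0.0229, 1.31%). DESeq2 called no member.

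In dendritic-like cells Itgae was the member with the widest difference. It read 23.4 and 19.0 CPM (control) against 46.3 and 64.4 (DKO), from 85, 49, 122 and 232 UMIs, and both DKO libraries were above both controls. The edgeR log2 value was 1.30 ± 0.19 (adjusted p = 0.0958). Itgam read 112 and 128 CPM (control) against 70.9 and 101 (DKO) (-0.55 ± 0.17, adjusted p = 0.463), and Itgb7 213 and 185 against 165 and 172 (-0.31 ± 0.14, adjusted p = 0.573). Itgax, the usual marker of these cells, read 137 and 130 CPM (control) against 165 and 174 (DKO), apart but without an unadjusted p under 0.05.

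Of the 9 members 0 were called (0.0% of 9721 genes), 3 had an unadjusted p under 0.05 (8.65% of genes) and 4 had no overlap (41.2%). Itgae was called by DESeq2 (adjusted p = 0.0162), where 0.297% of genes were, and without the filter on low counts (4.42e-08), where 1.02% were. It passed in edgeR with either DKO library as the lone one, the spread then coming from the 2 controls: with DKO 2 alone (log2 1.45) 6.41% of genes passed, Itga4 (-0.46) among them, and with DKO 1 alone (1.10) 1.45%, with Itgam (-0.76) among them. The list of 9 type 1 dendritic cell markers moved with Itgae, from 1710 and 1353 CPM in control to 2130 and 2568 in DKO. Type 1 dendritic-like cells, few as they were (24, 12, 21 and 30 cells), had Itgae at 171, 192, 282 and 230 CPM from 51, 30, 73 and 127 UMIs.

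Mature dendritic-like cells had Itgam at 16.2, 17.8, 6.54 and 6.66 CPM from 13, 12, 4 and 4 UMIs, and Itgb7 at 19.9, 20.8, 11.4 and 8.33. These were the 2 of 7 tested members with an unadjusted p under 0.05 (6.97% of genes), and edgeR (0.0348% of genes) and DESeq2 called none. The macrophage marker list summed there to 459 and 418 CPM (control) against 276 and 273 (DKO), and its part was not tested.

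At 1 common mix of dendritic-like subclusters Itgae read 18.8, 22.6, 34.8 and 32.9 CPM, and the log2 difference of group means went from 1.33 to 0.69. At that mix 42.9% of genes had no overlap. Only 1 of the 9 subclusters had at least 30 cells in each library, and the smallest had 12, 4, 5 and 11 cells, so these values rest on few cells. A dendritic-like subcluster of 166 cells that was led by the lymphocyte genes Gzmb, Trbc1 and Icos also held Itgae, at 16.7, 28.6, 47.1 and 61.4 CPM. Its part in the class value was not tested. Thinned to 2000 UMIs, 2.38, 1.91, 5.74 and 7.25% of dendritic-like cells had an Itgae UMI (8.86, 5.47, 11.7 and 18.3% unthinned, 25, 12, 13 and 11 cells left out). The share in monocyte/macrophage-like cells, which lack CD103, was 0.0916, 0.0624, 0.131 and 0.186%, at a depth similar to that of the dendritic-like cells (9450, 8448, 9361 and 12158 UMIs).

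**Figure D5:**
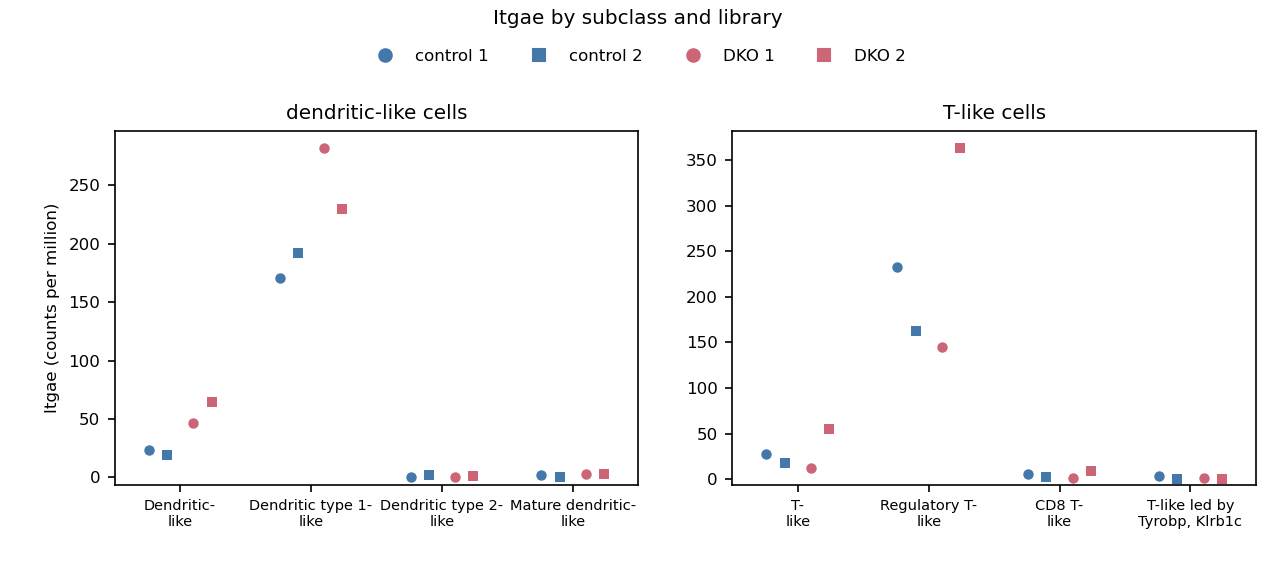
Itgae in CPM (y axis) in dendritic-like cells (left) and T-like cells (right) and their subclasses; every point is 1 library. Type 1 dendritic-like cells run from 171 to 282 CPM, and in regulatory T-like cells DKO 1 is the lowest library at 144 and DKO 2 the highest at 364.

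In regulatory T-like cells, the other place of Itgae, the groups overlapped. Itgae read 233 and 163 CPM (control) against 144 and 364 (DKO), so the DKO libraries were the lowest and the highest. The log2 value was 0.30 ± 0.60 (edgeR adjusted p = 0.906). It was -0.55 with DKO 1 as the lone DKO library and 0.79 with DKO 2 as the lone one, the latter past the threshold (adjusted p = 0.0166, 1.37% of genes). In all 0 of 8 tested members were called (0.272% of genes), and 1 had an unadjusted p under 0.05 (12.6%). DESeq2 also called none, but it gave an adjusted p to only 331 of 6618 genes (5.74% of them called). Thinned shares of Itgae were 31.6, 24.4, 18.1 and 39.9% (46.1, 27.6, 29.7 and 57.8% unthinned). Itgb7 read 668, 708, 602 and 664 CPM and Itgav 502, 434, 681 and 479.

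T-like cells as a whole had 5 of 9 members without overlap, beside 47.6% of genes. Among them Itgal read 338 and 350 CPM (control) against 425 and 400 (DKO), without an unadjusted p under 0.05. Itgax read 21.5 and 18.1 CPM (control) against 28.3 and 27.9 (DKO), and Itgav 100 and 103 against 147 and 121. Itgb7 was lower, at 221 and 213 CPM (control) against 156 and 208 (DKO), and Itgam at 13.5 and 15.3 against 7.39 and 7.36. No member was called by edgeR, which called 0.0369% of 10845 genes. Itgax, Itgav, Itgb7 and Itgam had adjusted p = 0.289, 0.332, 0.336 and 0.153 in that test. These 4 of 9 had an unadjusted p under 0.05 against 13.1% of genes. Itgae overlapped, at 27.7 and 17.3 CPM (control) against 11.7 and 55.4 (DKO), the DKO libraries being the lowest and the highest. With DKO 2 as the lone DKO library its edgeR log2 value was 1.16. The log2 difference of group means was 1.30 with DKO 2 alone and -0.86 with DKO 1 alone, so its direction rests on the library left out. Without the filter on low counts edgeR called Itgam (log2 -1.02, adjusted p = 0.00241, 1.84% of genes). DESeq2 called no member, but it gave an adjusted p to only 543 of the 10845 genes (4.6% of them called). A gene outside these could not be called, so this result says little.

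Itgam in T-like cells rested on 89, 72, 64 and 51 UMIs. It was lower in DKO in all 8 T-like subclusters with at least 30 cells in each library, 7 without overlap, with a median log2 of -1.02. In these subclusters 34.8 to 40.2% of the class's genes had no overlap. The subclusters come from the same 4 libraries and are not replicates. Macrophage markers in the same T-like cells moved with Itgam: the list of 9 summed to 395 and 430 CPM (control) against 243 and 241 (DKO), all 9 with a UMI in every library. The same list summed to 439 and 475 against 293 and 313 CPM in regulatory T-like cells (7 of the 9 with a UMI in every library), where Itgam read 22.4, 22.9, 9.38 and 10.2. In NK-like cells it summed to 418 and 439 against 233 and 247 CPM (8 of the 9), where Itgam read 52.3, 41.7, 46.9 and 53.4 and overlapped. The part of these transcripts in the T-like Itgam value was not tested.

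CD8 T-like cells had Itgb7 at 151 and 132 CPM (control) against 105 and 121 (DKO), without overlap (log2 -0.42 ± 0.14, edgeR adjusted p = 0.160). Itgal, their leading member, read 499 and 474 CPM (control) against 540 and 578 (DKO), also without overlap, with log2 0.11 and an adjusted p of 0.731. In this subclass 0 of 9 members were called (0.522% of genes), 2 had an unadjusted p under 0.05 (14.8%), and 5 did not overlap (48.4%). With DKO 1 as the lone DKO library Itgav passed (log2 0.74, adjusted p = 0.0162, 0.823% of genes): its libraries read 79.2, 83, 140 and 73.7 CPM. Cycling T-like cells had Itgav at 46.4, 77.1, 115 and 102 CPM (log2 0.79 ± 0.21, adjusted p = 0.145). It passed with control 1 as the lone control (1.19, adjusted p = 0.00457, 0.219% of genes) and with DKO 1 as the lone DKO library (0.88, 0.00889, 1.17%). Of 9 members 0 were called there (0.184% of genes) and 2 had an unadjusted p under 0.05 (10.4%), and Itgae passed with DKO 2 as the lone DKO library (1.79, adjusted p = 0.0372, 1.59% of genes). DESeq2 called no member in either subclass, but in CD8 T-like cells it gave an adjusted p to only 933 of 8625 genes (6.22% of them called).

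A T-like subclass of 904 cells matched the gamma-delta T marker list, but the leading genes of its larger subcluster (759 cells) were the natural killer genes Tyrobp, Klrb1c and Ncr1, so it is called here by those genes. It had Itgb7 at 220, 225, 188 and 166 CPM (log2 -0.38 ± 0.15, edgeR adjusted p = 0.249). There 0 of 8 tested members were called (0.76% of genes) and 2 had an unadjusted p under 0.05 (11.5%). In the T-like subclass with Ly49 receptors 0 of 6 were called (0.0892% of genes), and Itgav alone had an unadjusted p under 0.05 (8.92%), at 25.8, 42.8, 66.7 and 57.7 CPM. DESeq2 called no member in either. Across the 8 T-like subclusters Itgb7 was lower in DKO in 7, 6 of them without overlap, with a median log2 of -0.26. There 34.8 to 40.2% of the class's genes had no overlap. At 1 common mix of T-like subclusters Itgb7 read 240, 243, 206 and 216 CPM, where 50.7% of genes had no overlap. All of these libraries are shared between the subclusters.

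NK-like cells showed no member with an unadjusted p under 0.05, where 9.52% of genes reached it. Itgal read 379, 336, 397 and 511 CPM, Itgb1 608, 492, 511 and 586, and Itga4 249, 192, 227 and 233. None of 8 tested members was called by edgeR (0.0868% of 9213 genes) or DESeq2, and 2 of the 8 had no overlap (40.4%). With control 2 as the lone control Itgax passed (log2 0.70, adjusted p = 0.0216, 4.46% of genes); control 1 (96.8 CPM) was level with DKO 2 (97.4).

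The monocyte/macrophage-like and T-like values of the members were set against each other in 1 model with the library as block. By edgeR none of 9 members differed between the classes at an adjusted p under 0.05 (0.183% of 13148 genes did), and 2 had an unadjusted p under 0.05 (7.37%). The difference was 0.44 ± 0.18 for Itgax (adjusted p = 0.611). The higher Itgax of monocyte/macrophage-like cells was therefore not shown to differ from that of T-like cells. DESeq2 called no member in this model, where it gave an adjusted p to 5501 of 13148 genes (0.927% of them called).

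Other genes of the pathway were followed as 5 lists, and edgeR called none of their members in all CD45+ cells, in monocyte/macrophage-, T-, NK- or dendritic-like cells as a whole, or in macrophage-like cells. In the other classes and subclasses it called 3, all of them ligands described below. The class-by-group terms also called list genes. Smad7 was called between monocyte/macrophage- and T-like cells (log2 0.78, 1 of 68 list genes, 0.183% of all genes). Between macrophage- and classical monocyte-like cells 4 of 55 were (2.84%): Spp1 (1.74), Thbs1 (-0.77), Itga1 (-0.88) and Skil (-0.53). Against nonclassical monocyte-like cells it was Itga1 (-1.08, 1 of 55, 0.686%). Each of these calls was lost in some of 9 settings. Of 17 other integrin subunits, 10 were tested in monocyte/macrophage-like cells, 3 higher and 7 lower in value, with a median log2 of -0.17 beside 0.01 for all genes. Itga9, which binds tenascin and VCAM-1, read 75.2, 73.3, 105 and 114 CPM there (0.52 ± 0.11, adjusted p = 0.376). Itga5, the fibronectin receptor chain, read 48.9, 54.2, 40.3 and 46.0 CPM. In dendritic-like cells Itga1, a collagen receptor chain, read 35.8, 24.4, 56.9 and 59.4 CPM (log2 0.86 ± 0.19, adjusted p = 0.328).

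Of 28 genes of integrin activation and linkage to the cytoskeleton, 27 were tested in monocyte/macrophage-like cells, 11 higher and 16 lower, with a median of -0.13, and 3 had an unadjusted p under 0.05 (8.31% of genes). Rasgrp2, the exchange factor that switches integrins on in blood cells, read 21.5, 29.3, 20.2 and 15.6 CPM. In T-like cells 22 were tested, 9 higher and 13 lower, with a median of -0.00. Rassf5, which links the switch Rap1 to LFA-1, read 153, 127, 181 and 205 CPM there (log2 0.39 ± 0.13, adjusted p = 0.271).

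Of 20 integrin ligands, 14 were tested in monocyte/macrophage-like cells, 8 higher and 6 lower, with a median of 0.03, and 5 had an unadjusted p under 0.05. Vcam1, the ligand of VLA-4, read 106, 68.6, 178 and 163 CPM (0.94 ± 0.20, adjusted p = 0.376). Spp1 (osteopontin) read 248, 320, 157 and 169 CPM (-0.84 ± 0.17, adjusted p = 0.376) and Thbs1 (thrombospondin) 602, 847, 485 and 352. In dendritic-like cells Cdh1, the gene of E-cadherin and so the ligand of the Itgae product, read 100, 75.6, 132 and 196 CPM (0.82 ± 0.19, adjusted p = 0.353). The groups did not overlap for any of these 4, which were named for having the highest or lowest values of the list. Of the 14 ligands tested in monocyte/macrophage-like cells 5 had no overlap, beside 39.2% of all genes there and 41.2% in dendritic-like cells.

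The 3 calls outside the class-by-group terms were made in subclasses, and the genes are named because they were called. Spp1 fell in classical monocyte-like cells, from 373 and 524 CPM (control) to 74.6 and 123 (DKO), with log2 -2.26 ± 0.26 and an edgeR adjusted p of 0.0156 (0.0986% of genes called). Vcam1 rose in cycling monocyte/macrophage-like cells, from 125 and 98.0 CPM (control) to 216 and 241 (DKO), with log2 1.00 ± 0.15 and an adjusted p of 0.0389 (0.157% of genes). Fn1, the gene of fibronectin, fell in the T-like subclass led by Tyrobp, Klrb1c and Ncr1, from 34.1 and 31.5 CPM (control) to 9.77 and 18.7 (DKO), from 44, 37, 14 and 30 UMIs, with log2 -1.23 ± 0.28 and an adjusted p of 0.00426 (0.76% of genes). The macrophage marker list summed there to 427 and 422 CPM (control) against 236 and 246 (DKO), 7 of its 9 genes with a UMI in every library, and to 3682 and 4740 against 2469 and 3924 in the classical monocyte-like cells. Its part in the Fn1 and Spp1 values was not tested. Of 11 other settings Spp1 kept its call in 8, Vcam1 in 8 and Fn1 in 5. Spp1 lost it with doublets kept, with finer clusters and with the members clustered (adjusted p = 0.109, 0.476 and 0.127), and Vcam1 with doublets kept and without control 2 or DKO 1 (0.0594, 0.232 and 0.073). Fn1 lost it under DESeq2 (adjusted p of 0.99974), the replicate block (0.0895), finer clusters (0.167) and without control 1, control 2 or DKO 1 (0.114, 0.0837 and 0.237).

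The retinoic acid gut-homing set of Itga4, Itgb7 and Ccr9 held no member with an unadjusted p under 0.05 in monocyte/macrophage-like cells. In T-like cells the one that reached it was Itgb7. Its median log2 was -0.08 in monocyte/macrophage-like cells and 0.13 in T-like cells. Of 15 genes of the TGF-beta pathway, 12 were tested in monocyte/macrophage-like cells, 10 higher and 2 lower, with a median of 0.12. Runx3, a factor downstream of TGF-beta, read 224, 218, 305 and 278 CPM (0.37 ± 0.13, adjusted p = 0.531), and Smad7, the pathway's inhibitor, 55.2, 42.7, 79.4 and 109 (0.91 ± 0.17, adjusted p = 0.376). Runx3 also read 278, 254, 365 and 337 CPM in T-like cells (0.33 ± 0.12, adjusted p = 0.315) and 215, 218, 328 and 265 in dendritic-like cells (0.39 ± 0.16, adjusted p = 0.554).

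The class without a name that was led by Il13, Lgals7, Penk and Il4 had Cd3e in 83.9% of its cells. Itgam read 14.8 and 20 CPM there in control and 8.66 and 5.61 in DKO (log2 -1.34 ± 0.34, edgeR adjusted p = 0.155). Of its 9 members 0 were called (0.151% of genes) and 1 had an unadjusted p under 0.05 (12.0%). In the other unnamed class, with the lowest depth, 0 of 8 were called (0.0176% of genes) and 2 reached it (6.14%), Itgax and Itgal. DESeq2 called no member in either.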

How the data were processed

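Per the file headers and whole-number values, the deposited tables hold UMI counts per barcode and gene; the authors used Cell Ranger (matrix software 3.1.0) and Seurat 3.1.0 in R 3.6.0, with builds GRCh38 and mm10, per the submitters' processing notes and file headers. Of 31053 features, 30934 (99.62%) matched GENCODE vM21. Cells needed at least 200 genes, 500 UMIs and at most 10% mitochondrial UMIs, and the highest Scrublet scores were removed at 0.8% per 1000 barcodes (1930 barcodes marked). Clustering used scanpy 1.11.5 (Leiden resolution 1, 2000 variable genes, the 9 integrins left out). Clusters were named by marker lists. The minimum score of 0.5 for naming a subclass was set after the clusters were seen. Clusters with Cd3e in at least 50% of cells were kept from being named NK. The class without a name led by Il13 and Il4 and a shallow one were tested as they stood.

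Counts were summed per library and class (at least 30 cells in each library) and fitted with edgeR 4.0.16 (TMM, filterByExpr, robust quasi-likelihood, Benjamini-Hochberg over all genes, threshold 0.05) in R 4.3.3; DESeq2 1.42.0 was an alternative. On simulated data edgeR recovered 66.0% (all cells), 72.2% (monocyte/macrophage-like), 77.8% (T-like), 61% (NK-like) and 55.1% (dendritic-like) of 2-fold changes, with 4 to 13 false calls. The simulated spread followed the trend over expression level, so no gene varied beyond it and libraries did not differ in their mix of cells. These percentages are therefore no estimate of what the real test recovers. Shares are counting values and their precision is limited by the cells counted. The labels state no pairing of the libraries, so no block was used. The difference between replicates 1 and 2 in control correlated at -0.243 with that in DKO over all CD45+ cells (-0.357 in macrophage-like cells). This does not tell whether libraries shared a batch. Named genes were the 9 members, the targeted genes and Ptprc, from each pathway list the 2 highest and 2 lowest log2 values per class with at least 20 CPM in a group, and the 3 genes most like each member; of these the text gives a selection. The members and lists were chosen with earlier results of these data known.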

Additional observations from a re-analysis of the deposited data

Results flagged for a closer look

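The difference in the DKO against control value between macrophage-like and classical monocyte-like cells passed its own edgeR test for Itgax (log2 1.65) and Itgam (log2 -0.67). In macrophage-like cells both DKO libraries were above both controls for Itgax and below both for Itgam, and in classical monocyte-like cells the groups overlapped for Itgax and not for Itgam, which was lower in DKO by a smaller value.

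The same difference between macrophage-like and nonclassical monocyte-like cells passed for Itgam (log2 -0.83). These tests were added after the values were seen, and the settings under which they were lost are given with the results.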

How the results depend on the processing

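With 2 pools a group, edgeR called 0 members in every class and subclass, and so did the fit with the replicate block (0 calls in each). Under other settings more members were called, and more of all genes, whose share stands after each number. DESeq2 called 3 over all CD45+ cells (3.13%), 2 in monocyte/macrophage-like (1.41%), 1 in dendritic-like cells (0.297%) and 5 over the subclasses (0.949%). Without the low-count filter there was 1 in T-like cells (1.84%), 1 in dendritic-like cells (1.02%), 1 in the other classes (0.646%) and 5 over the subclasses (1.13%), and with the members among the clustering genes 1 (0.269%). A crossed pairing of the libraries, chosen after the data were seen, gave 2 over all CD45+ cells (2.67%), 1 each in T-like (4.51%), dendritic-like (1.75%) and other classes (2.59%) and 5 over the subclasses (2.57%). Leaving out 1 library gave 0 to 2 in monocyte/macrophage-like (0.0 to 1.94%), 0 to 1 in T-like (0.00901 to 0.822%), 0 to 1 in NK-like (0.189 to 4.46%), 0 to 2 in dendritic-like (0.0 to 6.41%), 0 to 1 in other classes (0.12 to 1.28%) and 2 to 4 over the subclasses (0.312 to 2.24%). In each of these fits 1 group holds a lone library that is assumed to vary like the other group, so their adjusted p-values are no measure of stability.

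Over all CD45+ cells and the 4 broad classes 0 pathway genes were called, against 12 by DESeq2, 10 without the filter, 1 with the replicate block, 15 with the crossed pairing and 1 to 11 without 1 library. Of all genes in the same cells 0.0 to 0.0868% were called by the main fit and 0.0434 to 4.6% by DESeq2. The share was 0.259 to 1.84% without the filter, 0.0 to 0.282% with the replicate block and 0.0309 to 4.51% with the crossed pairing. The top of each range was above that of the main fit, so these counts do not single out pathway genes. Over the subclasses and other classes 3 pathway genes were called, beside 0.22% of all genes tested in the subclasses and 0.0919% in the other classes. Under the same settings in that order there were 10 (0.949 and 0.119%), 20 (1.13 and 0.646%), 5 (0.642 and 0.0757%) and 27 (2.57 and 2.59%). Macrophage-like cells among them had 0 (0.0595% of genes), and 5 by DESeq2 (2.31%), 3 without the filter (1.75%) and 9 with the crossed pairing (4.67%). The difference between macrophage-like and classical monocyte-like cells had 2 member calls (2.84% of genes). It had 0 with doublets kept (0.0593%), 0 at Leiden resolution 2 (0.25%) and 0 with members among the clustering genes (0.191%). That against nonclassical monocyte-like cells had 1 (0.686%), and 2 without the filter (1.03%) and 2 with doublets kept (0.714%). Members without overlap at the common mix numbered 4 (40.6% of genes), and 4 to 9 without 1 library, when 58.8 to 80.8% of genes had none. The Itgax share difference of 8.27 points became 5.29 when thinned to 1000 UMIs.

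Member values were followed here if the main edgeR fit gave an unadjusted p under 0.05. Itgax and Itgam in the monocyte-like subclasses and Itgae in regulatory T-like cells were added. Most were thus picked for a difference in these same libraries, so a kept direction is no support. Of 39 such values in 416 settings, 407 kept their direction. The 9 that turned were Itgae in regulatory T-like cells without 1 library (-0.55, the range being -0.55 to 0.79), Itgax in classical monocyte-like cells without 1 library (-0.14 to 0.041; 0.01 without control 2), with doublets kept (0.53), at resolution 2 (0.68) and with members clustered (0.28), Itgax in nonclassical monocyte-like cells without 1 library (-0.51 without DKO 1, to 0.65), and Itgam there with doublets kept (0.15) and at resolution 2 (0.13). Of 8 differences between classes, also picked by an unadjusted p under 0.05, 70 of 72 settings kept theirs. Itgb7 in the difference between macrophage-like and classical monocyte-like cells turned with doublets kept (0.37) and at resolution 2 (0.41). The cause was not tested.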

Other observations

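Mast or basophil-like cells, with 13, 7, 13 and 58 cells, had Itgam at 102, 34.3, 272 and 615 CPM from 12, 1, 16 and 63 UMIs, and were too few for a test. In tumour or fibroblast-like cells, with 64, 62, 39 and 28 cells, Itgb1 read 498, 498, 504 and 516 CPM and Itga4 4.97, 5.06, 3.85 and 6.23.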
